A study of Mus musculus with 9 samples.

Results

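*Wdfy1*, *Ide*, *Entpd4* and *Nnt* are described as varying in sequence, copy number or transcript level between substrains or colonies of C57BL/6 mice. They were followed here in the hippocampus of mice with 3 doses of the ATPase inhibitory factor 1 (IF1), the small mitochondrial protein that inhibits the ATP synthase. Every array probe that carries 1 of these 4 gene names was taken, which gave 4 of the 31093 gene names and 10 of the 39429 probes of the array. Of these, 9 were among the 27993 probes, with 21906 gene names, kept because the 3 arrays of some genotype were all well above background. The genes had been proposed with results of these arrays in view, so the genotype differences of their probes are descriptions and carry no *P* value.

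All 9 mice were males of 9 months, labelled C57BL/6J, 3 per genotype, and RNA of each mouse was hybridized to 1 array. IF1-KO mice carried a floxed IF1 gene (*Atpif1*, also *Atp5if1*) whose exon 3 was removed by a Cre recombinase under the *Camk2a* promoter. That promoter is active mostly in excitatory forebrain neurons, so the other cells of the tissue keep IF1. The floxed mice descended from a knockout-first line made on C57BL/6NTac, crossed to mixed B6;SJL mice that express FLPe and then to a B6.Cg Cre line. IF1-TG mice carried human IF1 under a tetracycline-responsive element on a B6.CBA line, together with a transactivator under the *Camk2a* promoter on a mixed B6;CBA line. The control mice are labelled CRL only, and which Cre, floxed or transactivator alleles they carried is not given for the array mice. The number of backcrosses is not given in the sources used here either. Passenger segments from C57BL/6NTac, SJL or CBA could therefore differ between the genotypes, and genotype and line of origin cannot be told apart on these arrays. No strain genotyping was used here.

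Each of these genes works in a different compartment. NNT, the nicotinamide nucleotide transhydrogenase, sits in the inner mitochondrial membrane and uses the proton gradient to make NADPH for the antioxidant systems of the matrix, and C57BL/6J mice are known for a deletion of several *Nnt* exons that other substrains lack. IDE, the insulin-degrading enzyme, is a zinc metallopeptidase that cleaves insulin and amyloid beta, and the copy number of its gene varies in C57BL/6J colonies. WDFY1 is an endosomal protein with WD repeats and a FYVE domain, which binds phosphatidylinositol 3-phosphate, and it acts as an adaptor in Toll-like receptor signalling. ENTPD4 is a nucleoside diphosphatase of the Golgi and lysosomes.

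The sequences and positions of the probes show which stretch of a transcript each was designed to read. Coordinates refer to mm9, as annotated in the files, in which neither exons nor untranslated regions were marked. *Wdfy1* has 4 probes on the minus strand of chromosome 1. A_55_P2092730 (chr1:79698903-79698962) and A_66_P118236 (chr1:79699969-79700028) were designed on the transcript NM_001111279, from positions 4425 and 3359. A_55_P2070686 (chr1:79715620-79715679) and A_52_P511821 (chr1:79715600-79715659) were designed on NM_027057, from positions 573 and 593, and share 40 of their 60 bases. The first 30 bases are given for each probe except A_52_P511821, for which the last 30 are given. Capitals mark the bases that belong to the stretch shared by the overlapping probes.
Wdfy1 A_55_P2092730: gagacgctgcaaatttttgttctttctact
Wdfy1 A_66_P118236: aaattatatttaaagaagaattagagggag
Wdfy1 A_55_P2070686: acccctcctcccattgttagCTGCTTTGAA
Wdfy1 A_52_P511821: TTTATCCTAAaatccaagaacctctgtgtc
*Ide* has a single probe, on the minus strand of chromosome 19 (chr19:37343642-37343701), from position 4616 of NM_031156.
Ide A_52_P266530: tctatacaaagatgaatctaaacttagtcc
*Entpd4* has 2 probes on the plus strand of chromosome 14, A_55_P1992505 (chr14:69984685-69984744) and A_52_P582907 (chr14:69967249-69967308), from positions 2969 and 366 of NM_026174. RefSeq lists a further gene, *Entpd4b*, on the same chromosome, and whether these probes also read its transcripts was not tested.
Entpd4 A_55_P1992505: aagcccacaccgtggaagagcctgaattta
Entpd4 A_52_P582907: ctgtctcccttttatacttctctgttgtca
*Nnt* has 3 probes. A_55_P2144285 (chr13:120124335-120124394, minus strand) and A_55_P2144280 (not placed on mm9 in the annotation) were designed on NM_008710 from positions 4091 and 5102, and A_55_P2008956 (chr13:120142585-120142644, minus strand) on AK050478.
Nnt A_55_P2144285: gtattaagtgcgcttgaatggaatgcaacc
Nnt A_55_P2008956: ggagggaccaacattgttctgatgtggagg
Nnt A_55_P2144280: gagacatttttgggtttcagaactggcaga
Apart from the overlapping *Wdfy1* pair, none of the 10 probes shared a run of 20 bases with any other probe of the array, on either strand.

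Values are log2 signals relative to each array's 75th percentile, so that a difference of 1 is a doubling, and no probe's level is set against that of another probe. *Atpif1* itself (A_51_P518488) stood at 6.44, 5.20 and 5.53 on the IF1-KO arrays in replicate order, at 6.32, 6.34 and 6.19 on the CRL arrays and at 6.43, 6.39 and 6.51 on the IF1-TG arrays. The array labelled IF1-KO replicate 1 thus showed no reduction. Those differences with IF1-KO that are stated for the probes of the 4 genes are given with and without it. The same holds for neighbouring probes called in such a pair. Whether the probe lies in the deleted exon or detects human IF1 was not tested. Of the 3 slides, the first held 2 IF1-TG arrays (replicates 1 and 2) and nothing else, the second 4 arrays (replicate 1 of IF1-KO, replicates 1 and 2 of CRL, replicate 3 of IF1-TG), and the third the remaining IF1-KO and CRL arrays. All 6 hippocampal neuron markers were well above background on the 9 arrays. Their summed level was 5.07 to 5.13 on the IF1-TG arrays, 4.80 to 5.00 on the CRL arrays and 4.64 to 4.95 on the IF1-KO arrays. The markers did not all share this order. *Zbtb20* stood at 3.52 to 3.90 on the IF1-TG and 2.95 to 3.41 on the CRL arrays. *Prox1* went the other way, at -2.63 to -2.40 against -2.28 to -2.09. *Wfs1*, *Fibcd1*, *Neurod6* and *Camk2a* overlapped between IF1-TG and CRL arrays. *Gh* and *Prl*, pituitary hormone genes, were well above background on the CRL arrays only. Their summed level was -5.63 to -2.94 there, against -7.55 to -6.87 on the IF1-KO and -7.86 to -7.24 on the IF1-TG arrays. The sum of the choroid plexus markers spanned 0.80 to 6.53 on IF1-KO, 1.33 to 6.84 on CRL and 2.12 to 7.41 on IF1-TG arrays. The striatal marker *Adora2a* stood at -4.26 to -3.94 on IF1-KO and -3.61 to -1.87 on CRL arrays. The striatal markers *Drd2* and *Rgs9* overlapped in that pair. The part of these differences in the results below was not tested, and in bulk tissue fewer cells of a type and less RNA per cell cannot be told apart.

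On *Wdfy1* the IF1-KO arrays stood below all others at 2 of the 4 probes, A_55_P2092730 and A_66_P118236. At A_55_P2070686 all genotypes overlapped, and the dim A_52_P511821, highest in IF1-KO mice, was kept only through the IF1-KO arrays. On A_55_P2092730 the level was -0.42, -0.69 and -0.56 on the IF1-KO arrays, 1.37, 0.69 and 1.12 on the CRL arrays and 0.64, 0.66 and 0.62 on the IF1-TG arrays. The IF1-KO arrays were the lowest, the CRL arrays the highest, and no genotypes overlapped, although only 0.04 separated the lowest CRL from the highest IF1-TG array. The means were -0.56 ± 0.13, 1.06 ± 0.34 and 0.64 ± 0.02 (SD, n = 3). The level was thus 3.07-fold lower in IF1-KO than in CRL mice (log2 difference -1.62, standard error 0.17). Leaving out the array labelled IF1-KO replicate 1 gave -1.68. IF1-TG differed from IF1-KO mice by 1.20 (standard error 0.17; 1.26 without that array) and from CRL mice by -0.42 (standard error 0.17). The last value was -0.27 without CRL replicate 1 and -0.61 without CRL replicate 2. On this probe the array labelled IF1-KO replicate 1 sat with the other IF1-KO arrays, unlike at *Atpif1*.

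The neighbouring probe A_66_P118236, designed on the same *Wdfy1* transcript, showed the same order. Its level was -3.70, -3.50 and -3.51 on the IF1-KO arrays, -1.89, -2.71 and -2.00 on the CRL arrays and -2.54, -2.55 and -2.69 on the IF1-TG arrays. The IF1-KO arrays stood below all others, while CRL and IF1-TG arrays overlapped. The difference between IF1-KO and CRL mice was -1.37 (standard error 0.21, 2.58-fold), or -1.30 leaving out the array labelled IF1-KO replicate 1. For IF1-TG against IF1-KO mice it was 0.98 (standard error 0.21), and 0.91 without that array.

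The overlapping probes on the other *Wdfy1* transcript gave a different picture. On A_55_P2070686 all genotypes overlapped, with means of -1.97 ± 0.10 in IF1-KO, -2.06 ± 0.09 in CRL and -2.04 ± 0.23 in IF1-TG mice (SD, n = 3), and the difference between IF1-KO and CRL mice was 0.09 (standard error 0.14), or 0.07 leaving out the array labelled IF1-KO replicate 1. The dim probe A_52_P511821 was well above background on 3 IF1-KO, 2 CRL and 2 IF1-TG arrays, and thus was kept through the IF1-KO arrays alone. Its values were -5.16, -5.29 and -5.27 on the IF1-KO arrays, -6.41, -6.61 and -6.62 on the CRL arrays and -5.45, -5.70 and -5.88 on the IF1-TG arrays. Here the IF1-KO arrays were the highest and the CRL arrays the lowest, without overlap. The measured difference between IF1-KO and CRL mice was 1.31 (standard error 0.14), or 1.27 leaving out the array labelled IF1-KO replicate 1, and that between IF1-TG and CRL mice was 0.87 (standard error 0.14). Probes that share 40 bases thus gave 1.31 and 0.09 on the same RNA. The difference for IF1-TG against IF1-KO mice was -0.44 (standard error 0.14), and -0.40 with that IF1-KO array left out.

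On the *Wdfy1* probes A_55_P2092730 and A_66_P118236 the differences between IF1-KO and CRL mice were of similar size within slides. For A_55_P2092730 the difference was -1.45 within slide 2 and -1.75 within slide 3. For A_66_P118236 it was -1.40 and -1.50. Each of these rests on 1 array against 2.

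**Figure D1:**
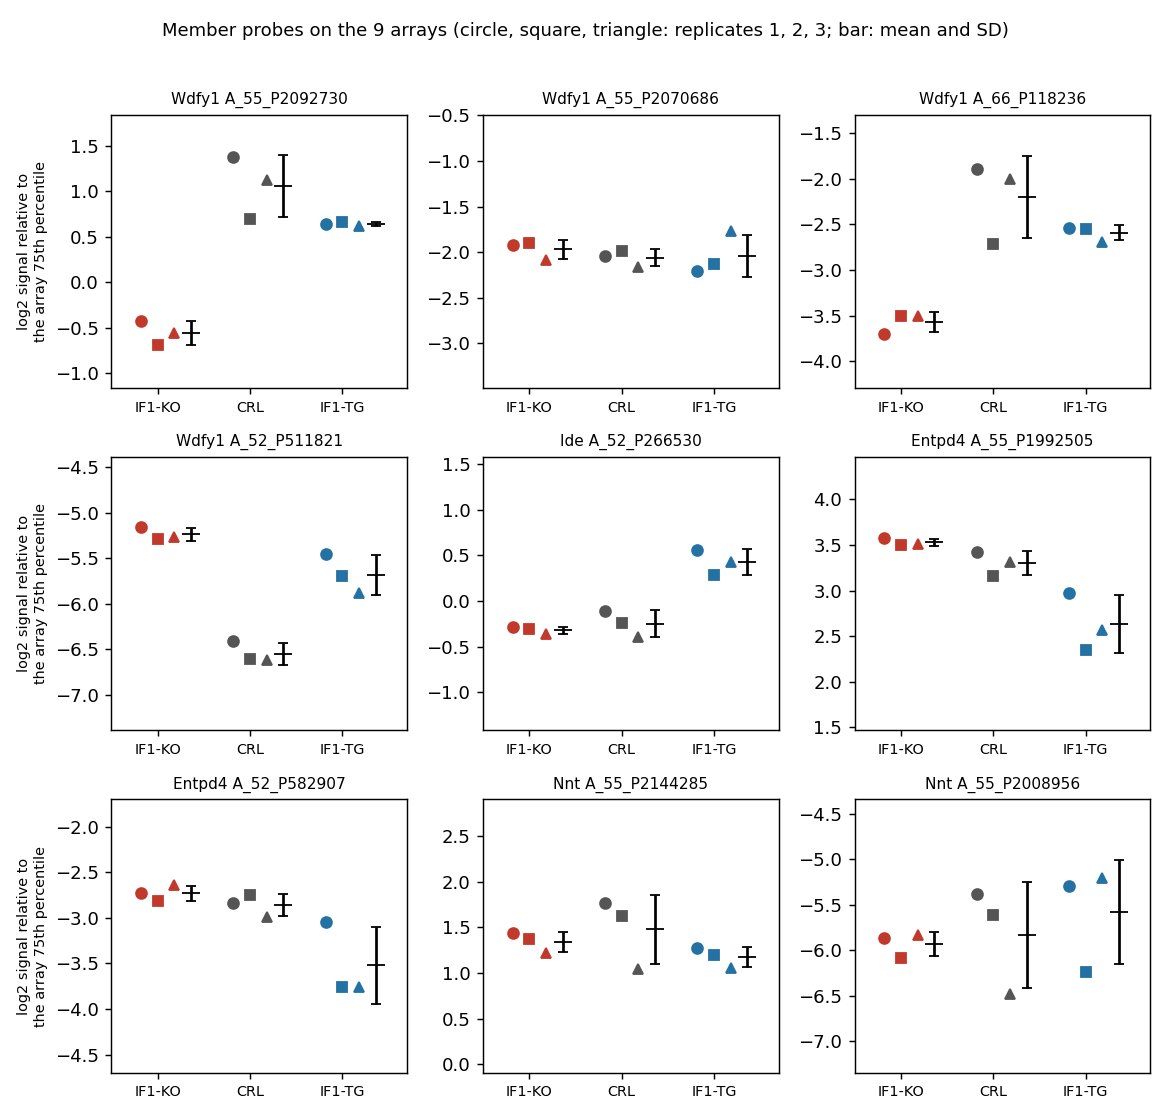
Level of the 9 probes of Wdfy1, Ide, Entpd4 and Nnt that passed the filter on the 3 IF1-KO (red), 3 CRL (grey) and 3 IF1-TG (blue) arrays; the vertical axis is the log2 signal relative to each array's 75th percentile and spans the same range in every panel, symbols are replicates and black bars are the mean and SD. On A_55_P2092730 of Wdfy1 the IF1-KO arrays lie between -0.69 and -0.42 and all others at 0.62 or above, whereas on the Ide probe the IF1-TG arrays lie at 0.29 or above and all others at -0.11 or below.

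*Ide* set the IF1-TG arrays apart. Its level was -0.28, -0.31 and -0.36 on the IF1-KO arrays, -0.11, -0.24 and -0.40 on the CRL arrays and 0.56, 0.29 and 0.43 on the IF1-TG arrays. Every IF1-TG array was above every other array, by at least 0.40, and IF1-KO and CRL arrays overlapped. The means were -0.32 ± 0.04, -0.25 ± 0.15 and 0.43 ± 0.14 (SD, n = 3). IF1-TG mice were 1.60-fold above CRL mice (log2 difference 0.68, standard error 0.12) and 1.67-fold above IF1-KO mice (0.74, or 0.76 leaving out the array labelled IF1-KO replicate 1). IF1-KO and CRL mice differed by -0.07 (standard error 0.12; -0.08 without that array). Within the second slide, which alone combines IF1-TG and other arrays, the single IF1-TG array was 0.61 above the CRL arrays and 0.71 above the IF1-KO array.

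*Entpd4* set the IF1-TG arrays apart in the other direction, on both probes. On the brighter, A_55_P1992505, the level was 3.58, 3.50 and 3.51 on the IF1-KO arrays, 3.42, 3.16 and 3.31 on the CRL arrays and 2.97, 2.35 and 2.57 on the IF1-TG arrays. No genotypes overlapped, but the gap between IF1-KO and CRL arrays was only 0.08. The means fell in the order of IF1 dose, with 3.53 ± 0.04 in IF1-KO, 3.30 ± 0.13 in CRL and 2.63 ± 0.32 in IF1-TG mice (SD, n = 3). The difference was -0.66 (standard error 0.17) between IF1-TG and CRL mice, -0.90 (standard error 0.17) for IF1-TG against IF1-KO mice, and 0.23 (standard error 0.17) between IF1-KO and CRL mice. With the array labelled IF1-KO replicate 1 left out, the last of these were -0.87 and 0.21.

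The dimmer *Entpd4* probe, A_52_P582907, lies in the earlier stretch of the transcript. It stood at -2.73, -2.81 and -2.64 on the IF1-KO arrays, -2.84, -2.75 and -2.99 on the CRL arrays and -3.04, -3.76 and -3.76 on the IF1-TG arrays. IF1-KO and CRL arrays overlapped and all IF1-TG arrays lay below them, replicate 1 by 0.05 only. Its difference between IF1-TG and CRL mice, -0.66 (standard error 0.20), had the same size as on the other probe, and that for IF1-TG against IF1-KO mice was -0.80 (standard error 0.20), with or without that IF1-KO array. Within slide 2 the single IF1-TG array was 0.71 below the CRL arrays on A_55_P1992505 and 0.97 below them on A_52_P582907. On both probes replicate 1 was the highest of the IF1-TG arrays.

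*Nnt*, the gene with the best-known C57BL/6J deletion, did not set any genotype apart. On A_55_P2144285 the level was 1.44, 1.37 and 1.22 on the IF1-KO arrays, 1.77, 1.63 and 1.04 on the CRL arrays and 1.28, 1.20 and 1.06 on the IF1-TG arrays. All genotypes overlapped, and the CRL arrays alone spanned the whole range. The differences were -0.13 between IF1-KO and CRL, -0.30 between IF1-TG and CRL and -0.17 for IF1-TG against IF1-KO mice (standard error 0.19 each). The first of these ranged from -0.35 (without CRL replicate 3) to 0.01 (without CRL replicate 1), and the second from -0.52 to -0.16 without the same arrays. With the array labelled IF1-KO replicate 1 left out, the difference from CRL mice was -0.18 and that for IF1-TG against IF1-KO mice -0.12. Between IF1-KO and CRL mice the difference was -0.25 within slide 2 and 0.25 within slide 3. The transcript was well above background on this probe on all 9 arrays.

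The other *Nnt* probes were dim. A_55_P2008956 gave -5.93 ± 0.13 in IF1-KO, -5.83 ± 0.58 in CRL and -5.58 ± 0.57 in IF1-TG mice (SD, n = 3), and all genotypes overlapped. A_55_P2144280 was not well above background on any of the 9 arrays and was left out of the differences. Whether an *Nnt* probe lies in the exons that C57BL/6J mice lack was not tested, so these levels do not show which *Nnt* allele a mouse carried.

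Over the 9 probes kept, the arrays did not overlap at 4 probes between IF1-KO and CRL mice, at 5 between IF1-TG and CRL mice and at 6 for IF1-TG against IF1-KO mice. Of all kept probes, 7.90%, 12.1% and 13.6% did not overlap in these pairs. IF1-KO stood apart from 2 overlapping genotypes at 1 of the probes of these genes (1.24% of all kept probes) and IF1-TG at 2 (4.67%). All 3 genotypes were apart at 3 (0.473%), CRL alone at 0 (1.73%), and 3 showed none of these patterns. The counts of all 3 pairs, and that of probes with every genotype apart, include A_52_P511821, which was kept only through the IF1-KO arrays where it was highest. The genes had been chosen on these differences, so the counts describe them and are no sign of an excess. The means rose with IF1 dose on *Ide* and fell with it on both *Entpd4* probes, although IF1-KO and CRL arrays overlapped on *Ide* and on A_52_P582907. On the *Wdfy1* probes A_55_P2092730, A_66_P118236 and A_52_P511821 the CRL mean was at an extreme.

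**Figure D2:**
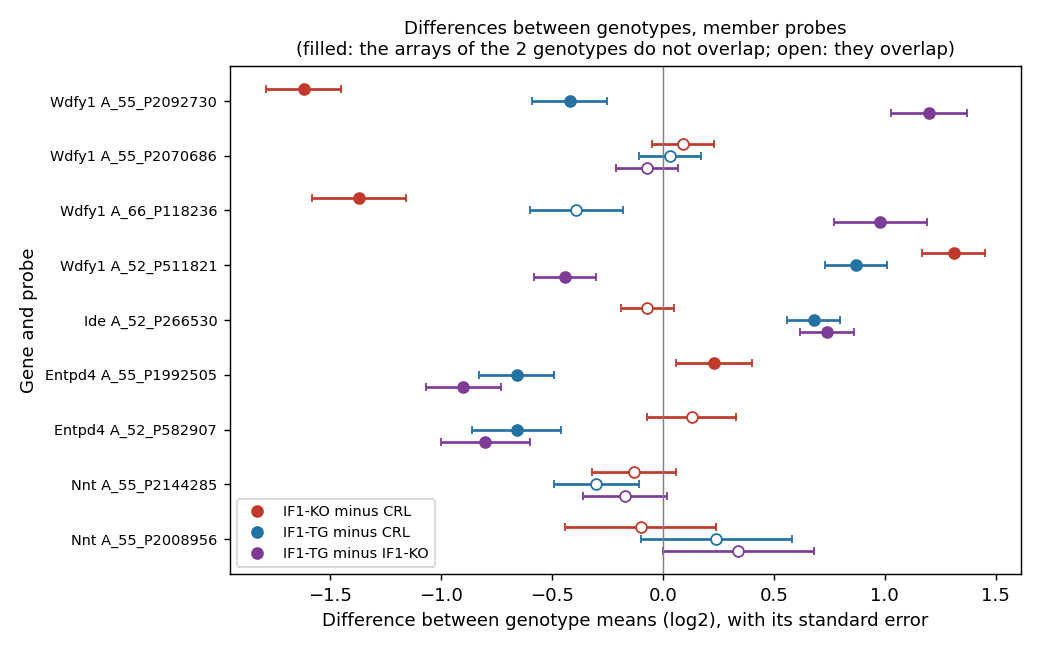
Differences between genotype means (log2, horizontal axis) with the standard error of the fit for each of the 9 probes; red is IF1-KO minus CRL, blue IF1-TG minus CRL and purple IF1-TG minus IF1-KO, and filled points mark pairs whose arrays do not overlap. For IF1-KO minus CRL the Wdfy1 probes A_55_P2092730 and A_66_P118236 lie at -1.62 and -1.37. The dim Wdfy1 probe A_52_P511821, at 1.31, was kept only through the IF1-KO arrays, where it was highest. Ide and Entpd4 depart from 0 by more than 0.23 only where IF1-TG is involved, and all Nnt points are open.

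The genes around each of the 4 were examined next, to see whether transcripts of the same chromosome region differed as well. A gene was called when a probe reached a fold change of 1.5 and an unadjusted *P* value below 0.05 in limma, the threshold of the study's methods. Of 158 genes with a probe within 2 Mb, 112 were tested, and 2 (1.79%) were called between IF1-KO and CRL mice, against 1.35% of all 21906 genes. Between IF1-TG and CRL mice 9 (8.04%) were called, against 5.60% of all genes. For IF1-TG against IF1-KO mice 10 (8.93%) were called, against 4.73% of all genes. Within 1 Mb 4 of 72 (5.56%) were called in each of the IF1-TG pairs, and within 5 Mb 19 (6.44%) and 20 (6.78%) of 295. The median difference of the neighbours was -0.02, -0.04 and -0.02 in these pairs and that of all genes -0.01, 0.00 and 0.01. No neighbour passed a Benjamini-Hochberg adjusted *P* value of 0.05 in limma, a threshold that 0, 1 and 3 of all genes reached (0.00%, 0.00456% and 0.0137%), while 3, 16 and 15 had an unadjusted *P* value below 0.05. With the array labelled IF1-KO replicate 1 left out, 0 of 117 neighbours were called between IF1-KO and CRL mice, against 2.27% of all genes, and 11 (9.40%) for IF1-TG against IF1-KO mice, against 6.28%.

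Around *Wdfy1*, 21 genes were tested and 0 were called between IF1-KO and CRL mice, the pair in which *Wdfy1* differed most, and 1 had an unadjusted *P* value below 0.05 in limma. The 5 genes nearest to it, taken by distance after their values were seen, differed by 0.00 to 0.14 in that pair. Among them *Mrpl44*, a protein of the mitochondrial ribosome 0.062 Mb away, gave 0.00 (standard error 0.14), and *Ap1s3*, an adaptor subunit of vesicle transport on the other side, gave 0.11 (standard error 0.18). The called genes lay more than 1 Mb away and involved IF1-TG mice. *Nyap2* was higher on A_51_P290556 in IF1-TG than in CRL mice by 0.96 (standard error 0.22) and than in IF1-KO mice by 0.67 (standard error 0.22). The second call was lost without the first IF1-KO array (0.59) or the third IF1-TG array, while the first held with each array left out. With normexp and quantile normalization the differences were 0.48 and 0.46, under the fold threshold. Its other probes were not called, A_55_P2157794 giving 0.33 and 0.27 and A_55_P2170605 giving 0.33 and -0.11. 5730419F03Rik and ENSMUST00000186576 were higher in IF1-TG than IF1-KO mice, by 0.98 and 0.82 (1.06 and 1.01 leaving out the array labelled IF1-KO replicate 1), and neither was called with slide as a fixed block (0.66 and 0.61). ENSMUST00000186576 also lost its call without the second IF1-KO array (0.51), and 5730419F03Rik without the third IF1-TG array and with normexp and quantile normalization (0.58).

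Around *Ide*, 38 genes were tested, of which 0 were called between IF1-KO and CRL mice, 6 between IF1-TG and CRL mice and 3 for IF1-TG against IF1-KO mice. None of the 38 had an unadjusted *P* value below 0.05 in limma in the first pair. The nearest of them moved with *Ide*: 4931408D14Rik, a long non-coding RNA gene 0.0107 Mb from the *Ide* probe. It stood at -4.23, -4.46 and -4.59 on the IF1-KO arrays, -4.35, -4.36 and -4.89 on the CRL arrays and -3.71, -3.76 and -3.42 on the IF1-TG arrays. As on *Ide*, the IF1-TG arrays were all the highest. It was higher in IF1-TG than in CRL mice by 0.90 (standard error 0.18, limma unadjusted *P* = 0.000983, adjusted *P* = 0.329) and than in IF1-KO mice by 0.80 (standard error 0.18; 0.90 without the first IF1-KO array), and both calls held with each array left out. After normexp correction of the background and quantile scaling, the difference from CRL mice was 0.49 and thus under the fold threshold.

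The genes on the same side of *Ide* did not all follow. *March5*, a mitochondrial ubiquitin ligase 0.047 Mb away, differed by -0.04 (standard error 0.11) between IF1-TG and CRL mice. A330032B11Rik, 0.073 Mb away and named after its values were seen, went the opposite way by -0.54 (standard error 0.14, limma unadjusted *P* = 0.00458), under the fold threshold. *Fgfbp3*, a carrier of fibroblast growth factors 0.352 Mb away that has been described in the same copy number variant, was higher in IF1-TG than in CRL mice by 0.60 (standard error 0.24, limma unadjusted *P* = 0.0354), but its arrays overlapped. Its call held in 6 of 9 fits with an array left out, with differences from 0.43 to 0.81, and was lost without the first CRL array or without IF1-TG replicates 1 or 3. *Btaf1*, a transcription regulator that lies between *Fgfbp3* and *Ide*, gave 0.03 (standard error 0.10). The other called genes lay more than 1 Mb away, A830019P07Rik and LOC102635358 being lower in IF1-TG than in CRL mice by -1.04 and -0.60, and Gm33698 and the unnamed probe A_55_P2014274 higher by 0.76 and 0.60. With an array left out, A_55_P2014274 kept its call in 4 of 9 fits (0.38 to 0.79), and Gm33698 (0.54 to 0.98) and LOC102635358 (-0.74 to -0.47) each in 6. With slide as a fixed block A_55_P2014274 and LOC102635358 were not called (0.69 and -0.65). A_55_P2014274 also lost its call with quantile normalization alone (0.58) and median scaling (0.57). For IF1-TG against IF1-KO mice Gm33698 was called at 0.71 (0.79 without the first IF1-KO array) and A830019P07Rik at -0.89 (-0.75 without it), the former losing its call in 3 of 9 such fits and with slide as a fixed block. Of these genes, only Gm33698 was also called with normexp and quantile normalization, and A830019P07Rik was then at -0.32. In the IF1-TG group A830019P07Rik was measured well above background by 1 array of 3, so its difference there is uncertain.

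Around *Entpd4*, 41 genes were tested, with 1, 2 and 3 called between IF1-KO and CRL, IF1-TG and CRL, and IF1-TG and IF1-KO mice. *Slc25a37*, the mitochondrial iron carrier mitoferrin, was the called gene closest to *Entpd4*, with a probe 0.0645 Mb away. That probe, A_55_P2032445, stood at -2.71, -2.62 and -2.80 on the IF1-KO arrays, -3.12, -2.41 and -3.06 on the CRL arrays and -3.03, -5.83 and -5.40 on the IF1-TG arrays. IF1-TG replicates 2 and 3 were low and replicate 1 was not. The difference between IF1-TG and CRL mice was -1.89 (standard error 0.62) and was no longer called without the second CRL array or without IF1-TG replicates 2 (-1.35) or 3. For IF1-TG against IF1-KO mice it was -2.04 (standard error 0.62; -2.05 without the first IF1-KO array), with no overlap, and was called with each array left out, the values ranging from -2.91 to -1.51. The brighter *Slc25a37* probe gave 0.07 (standard error 0.21) between IF1-TG and CRL mice. IF1-TG replicate 1 was also the IF1-TG array nearest to the CRL level on both *Entpd4* probes.

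The remaining called genes around *Entpd4* were *Polr3d* and 2 unnamed probes. *Polr3d*, a subunit of RNA polymerase III, was higher in IF1-KO than in CRL mice by 0.68 (standard error 0.28; 0.53 and not called without the first IF1-KO array), with overlapping arrays and a call that held in 3 of 9 fits with an array left out. A_55_P1982394 was lower in IF1-TG than in CRL mice by -0.98 (standard error 0.27) and than in IF1-KO mice by -0.78 (-1.07 without the first IF1-KO array), the latter called in 6 of 9 fits with an array left out. A_55_P2005720 was higher in IF1-TG than IF1-KO mice by 0.91 (standard error 0.35; 1.04 without that array), a call that held in 5 of 9 such fits. With slide as a fixed block A_55_P1982394 was not called (-0.64 from CRL and -0.29 from IF1-KO mice), nor were A_55_P2005720 (0.79) and *Polr3d* (0.61). A_55_P1982394 also lost both calls with normexp and quantile normalization (-0.58 and -0.50). *Synb*, *Loxl2* and *Chmp7*, within 0.132 Mb of *Entpd4*, were not called in any pair.

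Around *Nnt*, 12 genes were tested, with 1, 0 and 1 called in the same pairs. Gm7120 was higher in IF1-KO than in CRL mice by 0.77 (standard error 0.30; 0.49 and not called without the first IF1-KO array) on A_55_P2183914, with overlapping arrays and a call that held in 5 of 9 fits with an array left out. The call was lost with normexp and quantile normalization (0.57) and with slide as a fixed block (limma unadjusted *P* = 0.0714), and the other Gm7120 probe gave 0.12. 3110070M22Rik, a long non-coding RNA gene 0.134 Mb away, gave a difference of -0.74 for IF1-TG against IF1-KO mice (standard error 0.19; -0.63 without that array) and kept its call with each array left out, but not with normexp and quantile normalization (-0.50). *Paip1*, a translation factor 0.097 Mb from the *Nnt* probe, differed by -0.09 (standard error 0.14) between IF1-KO and CRL mice and by 0.23 (standard error 0.14) between IF1-TG and CRL mice.

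**Figure D3:**
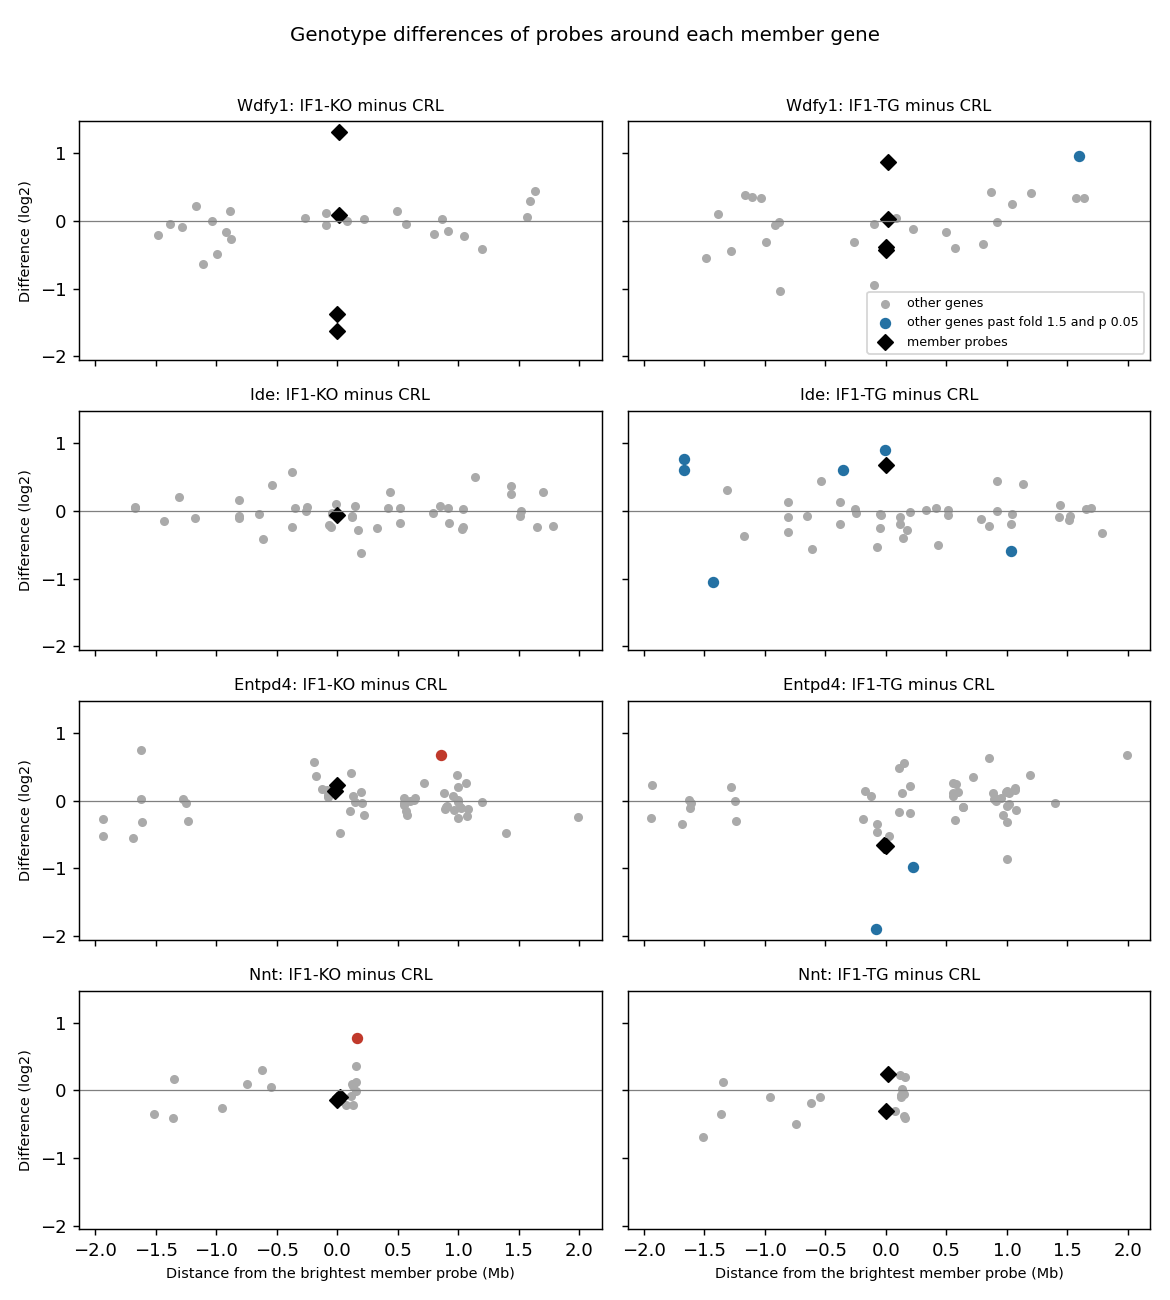
Differences of IF1-KO minus CRL (left) and IF1-TG minus CRL (right) for every tested probe around Wdfy1, Ide, Entpd4 and Nnt, against the distance in Mb from the brightest probe of the gene; black diamonds are probes of the 4 genes, coloured points other probes past a fold change of 1.5 and an unadjusted limma P value below 0.05, and grey points the rest. The Wdfy1 probes at -1.62 and -1.37 stand away from their neighbours, whereas the Ide probe at 0.68 has a neighbour at 0.90.

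Other genes described as varying between C57BL/6 substrains were read on the same arrays, from a list of 10 genes of which 8 were tested. Between IF1-KO and CRL mice 0 were called, with 1 at an unadjusted *P* value below 0.05 in limma. Between IF1-TG and CRL mice 3 were called, and for IF1-TG against IF1-KO mice 2, against the 5.60% and 4.73% of all genes given above. None passed an adjusted *P* value of 0.05. As at *Ide* and *Entpd4*, the calls involved IF1-TG mice.

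*Gabra2*, a subunit of the GABA-A receptor that carries an intronic deletion in C57BL/6J mice, was called on both of its probes. On A_55_P2177351 its level was -0.27, -0.87 and -0.33 on the IF1-KO arrays, -0.09, -0.45 and -0.51 on the CRL arrays and 0.34, 0.68 and 0.72 on the IF1-TG arrays. All IF1-TG arrays were above the others, as on *Ide*. The difference between IF1-TG and CRL mice was 0.93 (standard error 0.20, limma unadjusted *P* = 0.00145, adjusted *P* = 0.367), and 1.12 (standard error 0.33) on the other probe. Both kept their calls with each array left out, and with slide as a fixed block the second lost its call (1.09, limma unadjusted *P* = 0.0678). *Cyfip2*, an actin regulator with a missense variant in C57BL/6N mice, *Herc2*, *Dock2* and *Nlrp12* were not called in any pair, their differences between IF1-TG and CRL mice lying between -0.08 and 0.04. *Crb1*, a photoreceptor gene with a deletion in C57BL/6N mice, and *Mmrn1* were not kept.

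Genes of the families and pathways of the 4 were read next. Of 43 related genes with a probe 42 were tested, and 0 were called between IF1-KO and CRL mice, 3 (7.14%) between IF1-TG and CRL mice and 0 for IF1-TG against IF1-KO mice, against 1.35%, 5.60% and 4.73% of all genes. With slide as a fixed block 7 and 4 were called in the IF1-TG pairs, against 9.81% and 6.42% of all genes in that fit. The unadjusted *P* value in limma was below 0.05 for 1, 6 and 2 of them, and none passed after adjustment. The median difference was -0.02, 0.00 and -0.01.

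Among the endosomal FYVE proteins and the Toll-like receptors that WDFY1 serves, 1 of 10 was called. *Tlr3*, the endosomal receptor of double-stranded RNA, was lower in IF1-TG than in CRL mice by -0.70 (standard error 0.20, limma unadjusted *P* = 0.00659), and fell short of the fold threshold without IF1-TG replicate 2 (-0.53) and with normexp and quantile normalization (-0.26). In IF1-KO mice, where A_55_P2092730 of *Wdfy1* was lowest, *Tlr3* differed from CRL mice by -0.34 (standard error 0.20; -0.44 without the first IF1-KO array). Neither *Tlr4* nor *Ticam1*, the adaptor TRIF, was called, nor were *Wdfy2*, *Wdfy3* and *Wdfy4*. On *Wdfy2* the IF1-TG arrays still lay above all others, by 0.48 on average from CRL and 0.49 from IF1-KO mice. These differences (standard error 0.19 each, limma unadjusted *P* = 0.0365 and 0.0343) were under the fold threshold.

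Among the relatives of IDE and other enzymes that degrade amyloid beta or insulin, 2 of 9 were called, in opposite directions. *Mme*, the peptidase neprilysin, was lower in IF1-TG than in CRL mice by -0.71 (standard error 0.24) on A_52_P93837. That call was lost without IF1-TG replicate 3 and with normexp and quantile normalization (-0.27), and its other probe gave -0.43 (standard error 0.31). *Ece1*, the endothelin-converting enzyme, stood at -3.57, -3.39 and -3.39 on the IF1-KO arrays, -4.22, -3.83 and -3.67 on the CRL arrays and -3.24, -3.14 and -2.93 on the IF1-TG arrays. The CRL arrays were the lowest and the IF1-TG arrays the highest, without overlap. The difference between IF1-TG and CRL mice was 0.80 (standard error 0.16, limma unadjusted *P* = 0.000985, adjusted *P* = 0.329), called with each array left out but under the fold threshold with normexp and quantile normalization (0.47).

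None of the 7 tested ectonucleoside diphosphohydrolases and relatives of ENTPD4 was called in any pair, and none had an unadjusted *P* value below 0.05 in limma. None of the 16 genes of mitochondrial NADPH supply and use was called either, with 0, 1 and 1 at an unadjusted *P* value below 0.05. These include *Idh2*, *Me3* and *Glud1*, which supply NADPH or its substrates alongside NNT, and *Gsr*, *Txnrd2* and *Prdx3*, which use it. The gene below 0.05 in the IF1-TG pairs was *Gpx4*, whose arrays overlapped in no pair. Its means were 5.20 in IF1-KO, 5.07 in CRL and 4.66 in IF1-TG mice. It differed in IF1-TG mice by -0.42 from CRL and -0.55 from IF1-KO mice (limma unadjusted *P* = 0.0197 and 0.00496), under the fold threshold.

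**Figure D4:**
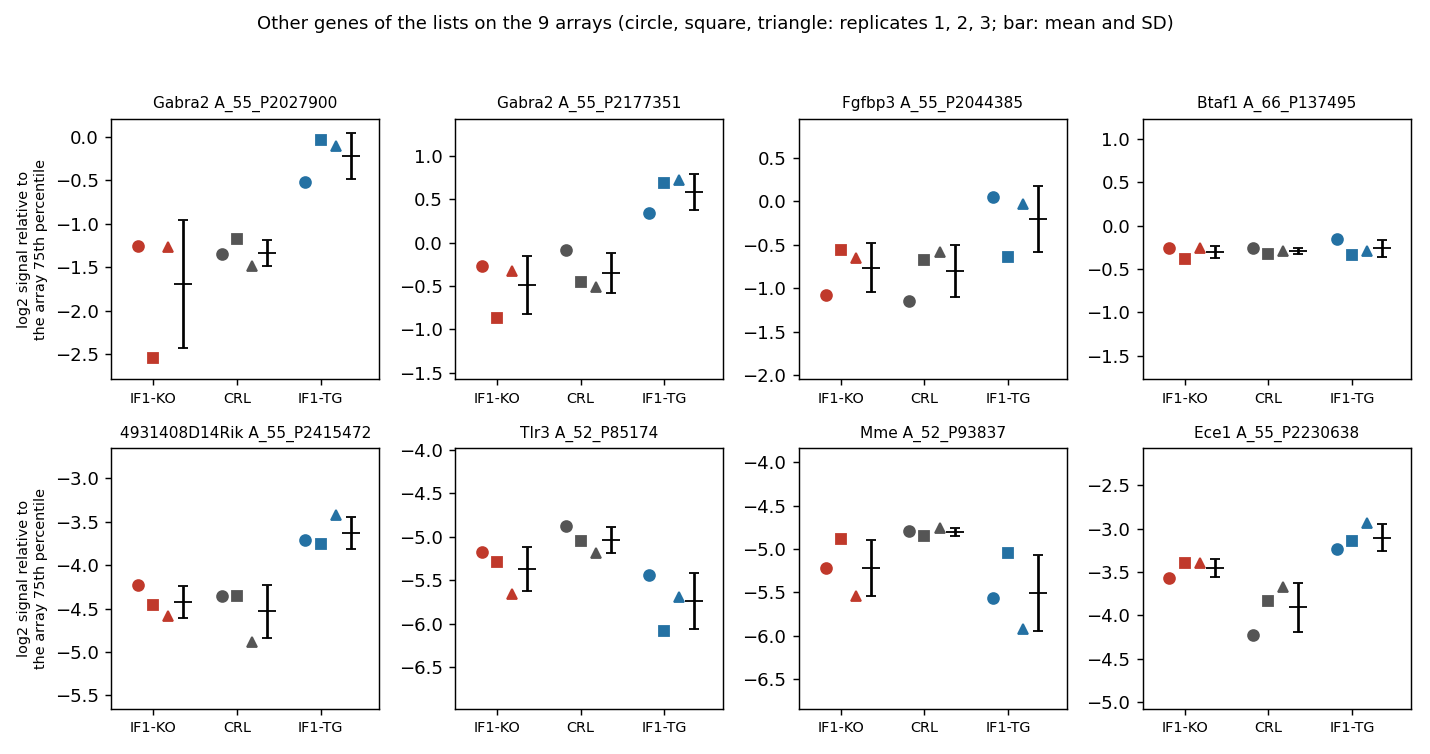
Level of other genes discussed beside Wdfy1, Ide, Entpd4 and Nnt on the 3 IF1-KO (red), 3 CRL (grey) and 3 IF1-TG (blue) arrays, as log2 signal relative to each array's 75th percentile; symbols are replicates and black bars the mean and SD. Gabra2 and 4931408D14Rik place every IF1-TG array above all others, Fgfbp3 has overlapping arrays, and Btaf1 stays at -0.30, -0.29 and -0.26 on average in the IF1-KO, CRL and IF1-TG groups.

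The genes whose brightest probe followed that of each of the 4 most closely were found by Pearson's r over the 9 arrays, among 21739 genes. These are descriptions over arrays that share genotype and slide. *Wdfy1* was followed best by *Sh3gl1* (r = 0.945), *Chat*, *Gnal*, *Fam89a* and *Sfpq*. *Sh3gl1*, an endophilin, varied far less, with means of 0.87, 1.02 and 1.00 in the IF1-KO, CRL and IF1-TG groups. The leading named genes were *Gsta4* for *Ide* (r = 0.943) and *Bnip1* for *Entpd4* (r = 0.960). None of the 5 closest genes of *Wdfy1*, *Entpd4* or *Nnt* is placed on the same chromosome as the gene it follows, nor is any placed gene among those of *Ide*. Among the 4 genes themselves, r was -0.79 between *Ide* and *Entpd4*, which both separated IF1-TG mice, and -0.41 to 0.43 in the other pairs.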

How the data were processed

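RNA from the hippocampus of 9 mice was hybridized to one-colour Agilent arrays. Per the file headers, the authors deposited intensities from Agilent Feature Extraction 10.7.3.1, background-subtracted within each array and not normalized between arrays, with uncorrected mean and background intensities and marks for spots well above background, saturated or outlying. Their normalization is not given in the sources used here. Control and outlier spots were left out here, spots of a probe averaged, and log2 intensities set relative to each array's 75th percentile. Probes well above background on all 3 arrays of a genotype were kept. No spot was saturated, and 66.7% to 74.9% of probes were well above background per array. The number of arrays limits the precision.

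All 9 arrays entered 1 linear model with genotype in limma 3.58.1 (R 4.3.3), tested on simulated data. Genes within 2 Mb on mm9, other substrain genes and related genes were counted as called at a fold change of 1.5 and an unadjusted *P* value below 0.05, with Benjamini-Hochberg values over all kept probes beside. The 4 genes and all lists were chosen with earlier results of these data known. Named are all probes of the 4 genes, *Atpif1*, called genes of the lists and, per gene, the 5 most alike by Pearson's r (some results are not reported here); other names were chosen after their values were seen. Symbols are those of the array, and gene neighbourhoods and types come from RefSeq (GRCm38.p6). Alternatives were quantile normalization alone or after normexp (offset 50), median scaling, other probe filters, slide and replicate blocks, windows of 1 and 5 Mb, adjusted *P* values, the mean of a gene's probes, and each array left out.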

Additional observations from a re-analysis of the deposited data

How the results depend on the processing

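For the brightest probe of each gene, the 108 differences with 1 array left out and 87 under the other alternatives moved by less than the replicate SD, and 6 moved by more. With the mean of the probes, *Wdfy1* gave -0.40 between IF1-KO and CRL mice and 0.42 between IF1-TG and IF1-KO mice. Between IF1-TG and CRL mice it gave 0.02, which turned the direction. That mean includes the dim A_52_P511821, kept only through the IF1-KO arrays, whose differences have the opposite sign to those of A_55_P2092730. *Nnt* gave -0.34 (normexp and quantile), -0.55 (slide as fixed block) and 0.09 (mean of the probes) between IF1-TG and IF1-KO mice. The causes of these shifts were not tested.

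Neighbours called between IF1-KO and CRL mice numbered 1 with normexp and quantile, 0 with slide as a fixed block, 0 with adjusted *P* values and 4 within 5 Mb. Between IF1-TG and CRL mice they were 2, 14 (12.5%, against 9.81% of all genes), 0 and 19 under these, 22 without the probe filter and 4 within 1 Mb. Between IF1-TG and IF1-KO mice they were 20 without the filter, 0 with adjusted *P* values, 4 within 1 Mb and 20 within 5 Mb. With 1 array left out they ranged from 0 to 6, 6 to 14 and 9 to 17, the extremes above 1.5 times coming without CRL replicate 3 (6), CRL replicate 2 (14) and IF1-TG replicate 2 (17). Other substrain genes called were 1 between IF1-KO and CRL mice without the filter and 0 in both IF1-TG pairs with adjusted *P* values, and ranged from 0 to 1, 2 to 3 and 2 to 3 with 1 array left out. Related genes called between IF1-TG and CRL mice were 0 with normexp and quantile, 7 with slide as a fixed block and 0 with adjusted *P* values. Between IF1-TG and IF1-KO mice they were 1 with normexp and quantile, 1 with quantile alone and 4 with the slide block. With 1 array left out they ranged from 0 to 0, 3 to 5 and 0 to 2. Counts printed here without a share were not set against the share of all genes called in the same fit. That share moves with the setting, for IF1-TG against CRL mice from 5.60% to 9.81% with slide as a fixed block. Such counts describe how far the calls depend on the processing and are no sign of an excess.

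Replicate numbers did not pair the arrays (correlations of same-numbered deviations from -0.166 to 0.117). With the replicate number as a block, 1 neighbour was called between IF1-KO and CRL mice. Slide 1 held IF1-TG arrays only, so 2 of 3 IF1-TG arrays have no other genotype on their slide. Dim probes, A_52_P511821 of *Wdfy1* among them, lie near the background and limit what can be said of them.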
